A study of Homo sapiens with 9 samples.

Results

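The family of miR-130, miR-301 and miR-454 is a group of microRNAs that share the seed, bases 2 to 8 of the mature strand, by which a microRNA pairs with its target messenger RNAs. A microRNA gene is transcribed as part of a longer RNA, cut to a hairpin, and cut again to a short duplex whose strands are named 5p and 3p after the arm of the hairpin they come from. Usually the strand that is loaded into an Argonaute protein accumulates, and the other is degraded. Members of a seed family can repress overlapping sets of targets while being transcribed from different genes, so the summed amount of a family and its composition are separate measurements. The family was taken as 7 names, and each was found by its exact name in the table of 1198 mature miRNAs, so that 7 of 1198 are described here. They are miR-130a-3p, miR-130b-3p, miR-130b-5p, miR-301a-3p, miR-301b-3p, miR-454-3p and miR-454-5p.

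HCT116 is an established human colorectal carcinoma line. Its subline HCT-Oxa-c (below also the oxaliplatin subline) and its subline HCT-FU-c (the fluorouracil subline) were derived from it under continuous, increasing exposure to oxaliplatin, a platinum drug, or to 5-fluorouracil, an inhibitor of thymidylate synthesis. Small RNA of each line was sequenced in 3 biological replicates, giving 9 libraries. Each drug is represented by 1 subline, and therefore the spread between replicates is that between cultures of this subline and not between independent selections.

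The label of a seed family was checked against the sequences, and it does not hold for the 5p strands among the 7 names. Mature sequences of 6 of the 7 members were found in RefSeq (GRCh38.p14), and hsa-miR-130a-3p was not found in the extract of RefSeq used here. The sequences are printed because the shared seed defines the family and because the near-identity of 2 members limits how their counts can be read. Capitals mark bases 2 to 8, from the 5′ end. The first 4 are the 3p members.
hsa-miR-454-3p: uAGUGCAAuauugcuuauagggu
hsa-miR-301a-3p: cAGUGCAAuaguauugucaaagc
hsa-miR-301b-3p: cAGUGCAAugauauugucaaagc
hsa-miR-130b-3p: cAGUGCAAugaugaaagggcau
hsa-miR-130b-5p: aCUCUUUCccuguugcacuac
hsa-miR-454-5p: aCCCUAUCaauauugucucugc

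The 4 printed 3p members carry the same 7 bases in capitals, and miR-130b-5p and miR-454-5p carry other seeds, each shared with 0 others of the 1059 listed miRNAs that have a RefSeq sequence. The family seed was found in 6 miRNAs of the RefSeq extract, which lacks miR-130a-3p, so the seed of that member was not checked. The 4 of these 6 that are listed in the count table are all members. miR-3666 and miR-4295, which also carry the family seed, are not listed there. Both 5p members are the opposite strands of hairpins whose 3p strand carries the family seed. In miR-130b-5p, bases 13 to 19 are the exact complement of the family seed, read in the opposite direction. No such stretch was found in miR-454-5p.

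miR-301a-3p and miR-301b-3p are identical at 21 of 23 positions. Counted from the 5′ end, with the base of miR-301a-3p first, they differ by A10G and G11A. The sources used here do not say how reads that fit both were counted, so the division of counts between these 2 members is uncertain. The other pairs of printed 3p members were identical at 10 to 13 positions of the 22 or 23 compared.

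The 7 members come from 5 hairpins at 3 places in the genome (GENCODE 29, GRCh38). MIR454 (chromosome 17, 59137758 to 59137872, minus strand) and MIR301A (chromosome 17, 59151136 to 59151221, minus strand) lie 13263 bases apart, both in intron 1 of all 10 annotated SKA2 transcripts that span them. SKA2 encodes a subunit of a complex that attaches chromosomes to the spindle at the kinetochore, and it is transcribed from the same strand. MIR301B (chromosome 22, 21652981 to 21653058, plus strand) and MIR130B (chromosome 22, 21653304 to 21653385, plus strand) are only 245 bases apart and lie in the noncoding transcript AP000553.1. MIR301B is in its intron 1, and 44 of the 82 bases of MIR130B overlap an exon. MIR130A (chromosome 11, 57641198 to 57641286, plus strand) lies alone, in intron 1 of both transcripts of the noncoding gene AP000662.1.

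Depth differed between libraries. HCT116 had totals of 1423526, 1414341 and 856383 counts in replicates 1, 2 and 3. In HCT-Oxa-c they were 1950307, 2207538 and 1088268, and in HCT-FU-c 1230774, 1487737 and 919675. Replicate 3 was the shallowest library of each line, and it also stood apart in composition. A model with the replicate number as a second factor found a difference between replicate numbers for 167 of the 367 tested miRNAs (45.5%, edgeR quasi-likelihood test, Benjamini-Hochberg adjusted p below 0.05). Values are therefore given for each replicate. Levels are in CPM, the counts for every 1e6 counts of a library after TMM scaling between libraries. A count of 3, which corresponds to between 1.34 and 4.01 CPM depending on the library, was taken as the limit below which a count cannot be told from 0. This limit covers counting error only, since the reads were amplified by PCR and are not separate molecules. In RNA from a whole culture, fewer cells with a miRNA and less of it in each cell cannot be told apart.

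Marker miRNAs were compared with the labelled cell type. All 5 epithelial markers, miR-200a-3p, miR-200b-3p, miR-200c-3p, miR-141-3p and miR-429, were present in every library, and miR-200c-3p, the most abundant of them, ranged from 9124 to 11370 CPM. Of the 3 intestinal markers, miR-194-5p was the most abundant, with 48.3 to 202 CPM. Its mean was highest in HCT-FU-c, at 143 CPM, but the line did not differ from HCT116 (edgeR adjusted p = 0.968) or HCT-Oxa-c (edgeR adjusted p = 0.466) at the threshold. miR-192-5p measured 34.6 to 70.3 CPM, and miR-215-5p did not exceed 18.5 CPM. The 4 markers of white blood cells summed to between 1.57 and 16.4 CPM, while miRNAs of red blood cells were high in replicate 3 only, as given below with the other differences of that replicate. Markers of fibroblasts and endothelium were not near 0. miR-143-3p measured 60.5 to 561 CPM, miR-145-5p 64.4 to 168 CPM, and miR-126-3p 432 to 981 CPM.

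The members covered a wide range of levels. The most abundant was miR-454-3p, with a mean of 517 CPM over the 9 libraries (rank 81 of 1198), followed by miR-130b-5p with 465 CPM (rank 85). miR-130b-3p had a mean of 133 CPM (rank 128), miR-301a-3p 64.0 CPM (rank 170) and miR-130a-3p 26.8 CPM (rank 224). The lowest were miR-454-5p with 20.7 CPM (rank 245) and miR-301b-3p with 13.2 CPM (rank 276). In this order, every neighbouring pair overlapped in the range of its libraries except miR-130b-5p and miR-130b-3p, the 2 strands of 1 hairpin, whose lowest and highest values were 322 and 196 CPM. All 7 members passed the filter on low counts. The threshold was met in all 9 libraries by 6 members and in 7 by miR-301b-3p, namely 2 of HCT116, 2 of HCT-Oxa-c and 3 of HCT-FU-c.

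To compare the parental line with its resistant sublines, all miRNAs that passed the filter were tested in 1 model. None of the 7 members passed the threshold in HCT-Oxa-c against HCT116, where 9 of 367 tested miRNAs did (2.45%). That count of 9 was 4 to 12 when 1 library was left out. The edgeR test gave 0 members with an unadjusted p below 0.05, beside 38 of the 367 tested miRNAs. DESeq2 called 0 members, beside 23 of 365 miRNAs. Of the members 3 were higher and 4 lower, with a median log2 fold change of -0.04, beside -0.01 over all tested miRNAs. This split of 3 to 4 was 4 to 3 with RLE scaling and 2 to 5 with total counts. It depended most on a single library, since without HCT116 replicate 3 it was 6 to 1, with a median of 0.26, and the log2 fold change of miR-301a-3p went from -0.36 to 0.99. With the replicate number as a block, 54 miRNAs were called (14.7%), and again 0 members. The libraries of both lines did not overlap for 59 miRNAs (16.1%) and for 0 members.

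The member with the greatest fold change in HCT-Oxa-c was miR-454-5p. Its level in replicates 1, 2 and 3 was 12.2, 15.01 and 20.05 CPM in HCT116 and 17.3, 21.0 and 54.4 CPM in HCT-Oxa-c. At each replicate number the subline was higher, but its replicate 1 was below HCT116 replicate 3, and its replicate 3 was far above all others. The log2 fold change was 0.96 (SE 0.47, edgeR adjusted p = 0.520), and without HCT-Oxa-c replicate 3 it was 0.37. The counts behind these values were 15 to 53.

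Both strands of MIR130B had small differences of opposite sign in HCT-Oxa-c. miR-130b-3p measured 126.34, 125.77 and 196 CPM in HCT116 and 99.7, 93.9 and 126.28 CPM in HCT-Oxa-c. It was lower in the subline at each replicate number, with log2 differences of -0.34, -0.42 and -0.64, and the ranges overlapped only in that replicate 3 of the subline was just above replicate 2 of HCT116. The log2 fold change was -0.49 (SE 0.27, edgeR adjusted p = 0.642), and without HCT116 replicate 3 it was -0.27. miR-130b-5p measured 364, 507 and 390 CPM in HCT116 and 603, 563 and 419 CPM in HCT-Oxa-c, which was higher at each replicate number with overlapping ranges. Its log2 fold change was 0.33 (SE 0.28, edgeR adjusted p = 0.875), and without HCT116 replicate 2 it was 0.55.

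In HCT-FU-c against HCT116, edgeR called 0 of 367 miRNAs (0%), and 15 had an unadjusted p below 0.05. DESeq2 called 4, and the model with the replicate block called 20 (5.45%). None of the 7 members was among the calls of any of these 3 fits, and 0 members had an unadjusted edgeR p below 0.05. Of the members 3 were higher and 4 lower, with a median log2 fold change of -0.02 beside 0.02 over all tested miRNAs. With total counts in place of TMM the split was 5 to 2, and that scaling moved the median of all tested miRNAs to 0.19. Without HCT116 replicate 3 all 7 members were higher, with a median of 0.21 beside 0.14 over all tested miRNAs, and 0 were called. Libraries of both lines did not overlap for 32 miRNAs (8.72%), and for 0 members.

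Among the members, miR-301b-3p had the greatest fold change in HCT-FU-c. It measured 6.11, 8.58 and 13.4 CPM in HCT116 and 26.5, 29.4 and 9.54 CPM in HCT-FU-c. Replicates 1 and 2 of the subline were above all HCT116 libraries and replicate 3 was not, with 8 counts. The log2 fold change was 1.28 (SE 0.57, 95% interval -0.01 to 2.58, edgeR adjusted p = 0.913). In a fit of replicates 1 and 2 only, chosen after the data were seen, the estimate was 1.87 (edgeR adjusted p = 0.0346), while over the other alternative fits the adjusted p ranged from 0.158 to 0.999.

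miR-454-3p measured 427, 338 and 925 CPM in HCT116, 411, 365 and 863 CPM in the oxaliplatin subline and 307, 204 and 816 CPM in the fluorouracil subline. Within each replicate number HCT-FU-c was the lowest of the lines, but the differences were small beside those between replicate 3 and the other replicates. The log2 fold change in HCT-FU-c against HCT116 was -0.35 (SE 0.60) without the replicate block and -0.45 (SE 0.17) with it, and the edgeR adjusted p was 0.997 and 0.116 (0.116 to 0.999 over the alternative fits). Without HCT116 replicate 3 the sign turned, to 0.21, and without HCT-FU-c replicate 2 it turned to 0.011. In HCT-Oxa-c against HCT-FU-c the differences at the 3 replicate numbers were 0.42, 0.84 and 0.08, and the log2 fold change was 0.31 (edgeR adjusted p = 0.854). When 1 library was left out, it ranged from -0.13 to 1.18. With the replicate block it was 0.44 (95% interval 0.10 to 0.78), and the edgeR adjusted p of 0.0530 (0.0530 to 0.989 over the alternative fits) did not pass. With replicates 1 and 2 only, a fit chosen after the data were seen and not counted in these ranges, it was 0.68 (edgeR adjusted p = 0.0514).

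miR-130a-3p, the only member from chromosome 11, was nearly level in the 3 lines. Its mean was 26.4 ± 6.07 CPM in HCT116, 26.7 ± 9.02 CPM in the oxaliplatin subline and 27.1 ± 7.26 CPM in the fluorouracil subline (SD, n = 3 each). The 95% interval of its log2 fold change was -0.80 to 0.82 in HCT-Oxa-c and -0.75 to 0.86 in HCT-FU-c, so smaller changes in either direction were not resolved.

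The sublines were also compared with each other, in the same model, so that the HCT116 libraries enter its scaling, filter and estimate of spread. Between HCT-Oxa-c and HCT-FU-c, edgeR called 16 of 367 miRNAs (4.36%) and 0 members. A model of the 6 subline libraries alone called 13. Leaving out 1 library gave 10 without HCT116 replicate 1, 9, 7 and 8 without HCT-Oxa-c replicates 1, 2 and 3, 6 without HCT-FU-c replicate 1 or 2, and 23 without HCT-FU-c replicate 3. An unadjusted p below 0.05 was found for 1 member, beside 62 of the 367 tested miRNAs. DESeq2 called 0 members, beside 43 of 365 miRNAs. The members had a median log2 fold change of -0.04 beside -0.07 over all tested miRNAs. The split of 3 higher to 4 lower was 5 to 2 with RLE scaling, and total counts moved the median of all tested miRNAs to -0.26. With the replicate block 97 miRNAs were called (26.4%), and 1 member, miR-301b-3p, was among them. Libraries of both sublines did not overlap for 84 miRNAs (22.9%) and for 1 member, miR-454-5p, which was higher in every HCT-Oxa-c library (lowest 17.3 CPM) than in any HCT-FU-c library (highest 16.3 CPM). Its log2 fold change was 0.98 (SE 0.46, edgeR adjusted p = 0.335), and without HCT-Oxa-c replicate 3 it was 0.38. Whether 1 of 7 members differs from these parts of all tested miRNAs was not tested.

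miR-301b-3p measured 13.1, 8.50 and 4.11 CPM in HCT-Oxa-c, against the 26.5, 29.4 and 9.54 CPM of HCT-FU-c. It was lower in HCT-Oxa-c at each replicate number, although HCT-Oxa-c replicate 1 was above HCT-FU-c replicate 3. The log2 fold change was -1.32 (SE 0.56), with an edgeR adjusted p of 0.264 without and 0.0470 with the replicate block. Over the alternative fits the adjusted p ranged from 0.0470 to 0.697, where only the block brought it below the threshold. With replicates 1 and 2 only, the fit chosen after the data were seen, the log2 fold change was -1.31 (edgeR adjusted p = 0.0396).

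**Figure D1:**
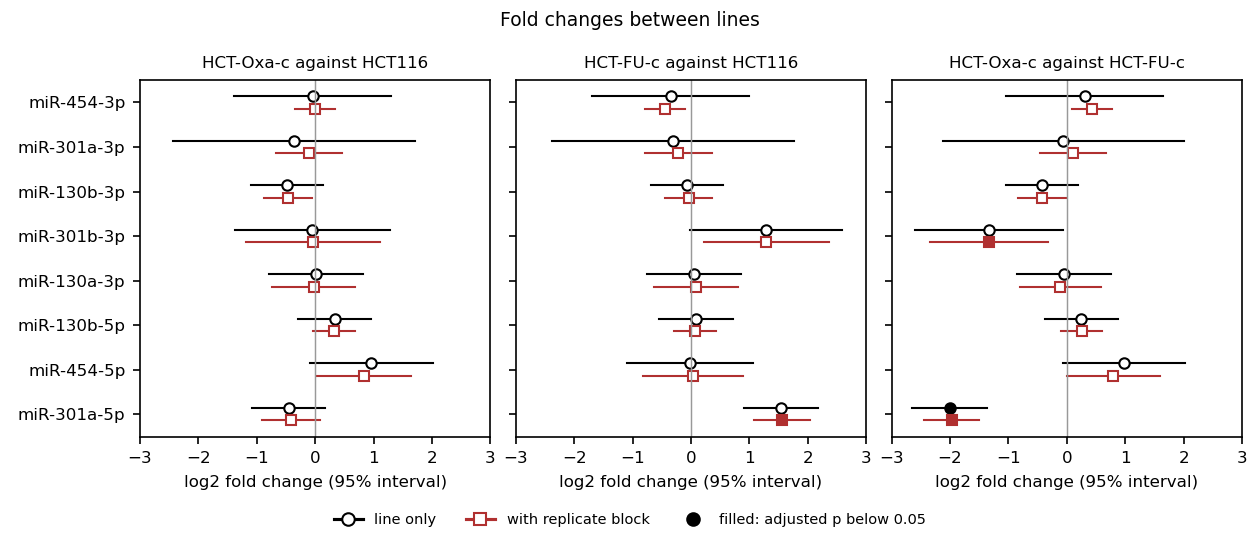
Log2 fold change with its 95% interval for the 7 members and miR-301a-5p in the 3 comparisons, from the model of the line only (black circles) and with the replicate block (red squares); filled symbols passed an adjusted p of 0.05. Among the members only miR-301b-3p has a filled symbol, in HCT-Oxa-c against HCT-FU-c with the block, and the intervals of miR-454-3p and miR-301a-3p narrow most when the block is added.

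The 3p strands of the chromosome 17 hairpins, miR-301a-3p and miR-454-3p, differed more between replicate numbers than between lines. miR-301a-3p measured 25.1, 30.7 and 167 CPM in HCT116, 33.0, 31.8 and 108 CPM in the oxaliplatin subline and 36.3, 18.9 and 125 CPM in the fluorouracil subline. In every line replicate 3 was above both other replicates, at 5.98 times their mean in HCT116, 3.33 times in HCT-Oxa-c and 4.53 times in the fluorouracil subline. For miR-454-3p, the ratio of replicate 3 to the mean of the others was 2.42, 2.22 and 3.196 in the same order. The raw counts of both were also higher in replicate 3 of every line, although these libraries were the shallowest. For miR-301a-3p they were 37, 43 and 125 in HCT116.

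The test of the replicate number gave an adjusted p of 1.36e-07 for miR-301a-3p and 7.94e-08 for miR-454-3p (edgeR quasi-likelihood F test). Both passed in all 14 alternatives, where the highest adjusted p was 0.000584. These were 2 of 7 members, beside 45.5% of all tested miRNAs. The other members did not pass. The adjusted p of miR-130b-5p was 0.0778, but it passed in 6 of the 14 alternatives, which ranged from 0.00558 to 0.295. The other adjusted p-values were 0.106 for miR-130b-3p, 0.117 for miR-454-5p, and 0.536 for both miR-130a-3p and miR-301b-3p. Of the 367 tested miRNAs, 129 were higher in replicate 3 than the mean of replicates 1 and 2 in all 3 lines and 119 were lower. A ratio of 2 or more in every line was found for 38 of them, including miR-301a-3p and miR-454-3p. The third chromosome 17 member, miR-454-5p, had ratios of 1.47, 2.84 and 1.01. miR-130b-5p was the 1 member that was lower in replicate 3 of every line, with ratios of 0.896, 0.719 and 0.634.

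Other measured quantities moved with replicate 3 as well. The fibroblast and smooth muscle markers summed to 2.05 times the mean of the other replicates in HCT116, 1.56 times in HCT-Oxa-c and 2.40 times in the fluorouracil subline. This came from miR-143-3p, the more abundant of the 2, with ratios of 3.01, 3.203 and 4.68, whereas miR-145-5p had ratios of 0.797, 0.544 and 0.604. The epithelial markers summed to 0.775, 0.853 and 0.833 times, the intestinal markers to 0.803, 0.720 and 0.515 times, and the endothelial miR-126-3p was at 0.590, 0.584 and 0.607. For the replicate number, 2 of the 5 epithelial markers and 1 of the 2 tested intestinal markers passed, beside 45.5% of all tested miRNAs. Some went the other way, with ratios of 1.12 for miR-429 in HCT-Oxa-c and 1.04 for miR-192-5p in HCT116. miR-215-5p, too low to be tested, had ratios of 3.84 in HCT116 and 2.98 in HCT-Oxa-c. The markers of white blood cells, all too low to be tested, summed to 1.78, 7.72 and 0.496 times.

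The largest of these differences was in miRNAs of red blood cells, which were named after their values were seen. miR-451a, which is made in large amounts in red cell precursors, had the lowest adjusted p of all 367 tested miRNAs for the replicate number (edgeR, 5.39e-13). For replicates 1, 2 and 3 it had 2, 0 and 86 counts in HCT116, 1, 2 and 246 in the oxaliplatin subline and 0, 0 and 70 in the fluorouracil subline. In replicate 3 this was 115, 253 and 83.4 CPM, and all counts of replicates 1 and 2 were below the limit of 3. miR-486-5p, the more abundant in every library, measured 12.9, 17.9 and 270 CPM in HCT116, 8.39, 18.8 and 310 CPM in the oxaliplatin subline and 31.0, 28.9 and 199 CPM in the fluorouracil subline (edgeR adjusted p = 1.54e-10). With miR-144-3p and miR-144-5p, which had at most 4 counts, the 4 summed to 16.3, 19.3 and 392 CPM in HCT116, 8.92, 19.7 and 568 CPM in the oxaliplatin subline and 31.0, 30.5 and 285 CPM in the fluorouracil subline. The part of depth and of all these markers in the levels of miR-301a-3p and miR-454-3p was not tested.

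The 3p strands of the chromosome 17 hairpins had a higher correlation than those of the chromosome 22 hairpins, which was not particular to neighbouring hairpins. As a description, Pearson's r of log2 CPM over the 9 libraries was 0.94 for miR-454-3p and miR-301a-3p, and 0.60 over the 6 libraries of replicates 1 and 2. The points share libraries, and therefore their depth and scaling. For miR-130b-3p and miR-301b-3p, r was 0.17 over 9 libraries and 0.39 over 6, where miR-301b-3p rests on 4 to 56 counts. Over the same 6 libraries some strands from different chromosomes had a higher r than 0.60. It was 0.70 for miR-130a-3p and miR-130b-3p and 0.81 for miR-301b-3p and miR-301a-5p. Other such pairs were negative, as miR-130a-3p and miR-301a-3p with -0.94. Strands of the same hairpin did not follow each other closely. Over the 9 libraries r was 0.50 for the strands of MIR454, -0.73 for those of MIR130B and -0.08 for those of MIR301A. Over the 6 libraries of replicates 1 and 2 it was -0.10, -0.63 and -0.22, so that the sign for MIR454 rested on replicate 3.

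Outside the family, the tested miRNA whose log2 CPM was most like that of miR-454-3p over the 9 libraries was miR-181d-5p (r = 0.98, and 0.97 over the 6 libraries of replicates 1 and 2). For miR-301a-3p it was miR-584-5p (r = 0.98, and 0.93 over 6). Such likeness was common for these 2 members, since 27 and 32 of 360 other miRNAs had an r above 0.9. For miR-301b-3p the most alike was miR-505-3p (r = 0.93) and for miR-130b-3p miR-193a-5p (r = 0.91), and each had 2 miRNAs above 0.9. The closest to miR-130b-5p was let-7b-3p (r = 0.86), to miR-454-5p miR-379-5p (r = 0.84) and to miR-130a-3p miR-423-5p (r = 0.82), with 0 above 0.9.

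The family seed was supplied mainly by miR-454-3p in each line. Its share in the summed counts of the 5 members that are 3p strands was 69.8%, 64.6% and 69.3% in replicates 1, 2 and 3 of HCT116. In HCT-Oxa-c its share was 71.2%, 69.9% and 75.8%, and in HCT-FU-c 60.6%, 46.4% and 71.95%. The mean share in HCT-FU-c, 59.6% ± 12.8 (SD, n = 3), was lower than in HCT116, 67.9% ± 2.86, and HCT-Oxa-c, 72.3% ± 3.12, but its replicate 3 lay among the libraries of the other lines. miR-130b-3p held 19.8% ± 4.72 in HCT116, 15.4% ± 3.79 in the oxaliplatin subline and 23.8% ± 10.4 in the fluorouracil subline.

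The remaining 3p members held small shares. miR-301a-3p accounted for 4.11%, 5.87% and 12.5% in replicates 1, 2 and 3 of HCT116, 5.73%, 6.07% and 9.47% in the oxaliplatin subline and 7.16%, 4.30% and 11.03% in the fluorouracil subline. Its mean of 7.50% in HCT116 was 4.99% without replicate 3. The share of miR-130a-3p was 4.44%, 3.83% and 2.40% in HCT116, 3.46%, 4.45% and 3.25% in the oxaliplatin subline and 4.18%, 8.005% and 2.21% in the fluorouracil subline. In the last its mean of 4.80% was 3.19% without replicate 2. miR-301b-3p held 1.00%, 1.64% and 1.00% in HCT116, 2.27%, 1.63% and 0.361% in the oxaliplatin subline and 5.22%, 6.69% and 0.840% in the fluorouracil subline. No test was applied to the shares.

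The summed level of the 5 3p members followed the replicate number. It was 611, 523 and 1334 CPM in HCT116, 576, 523 and 1139 CPM in the oxaliplatin subline and 507, 440 and 1135 CPM in the fluorouracil subline. Replicate 3 was above every replicate 1 and 2 library, and the lines overlapped. The sum of miR-130b-3p, miR-301b-3p and miR-130a-3p, without the 3p strands from chromosome 17, was 160, 154 and 242 CPM in HCT116, 133, 126 and 167 CPM in the oxaliplatin subline and 163, 217 and 193 CPM in the fluorouracil subline. In that sum replicate 3 was the highest library of HCT116 and of the oxaliplatin subline, but not of the fluorouracil subline.

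The opposite strand of miR-301a-3p, miR-301a-5p, is not one of the 7 names, and it was described because it comes from the same hairpin as a member. The MIR301A hairpin is printed with both mature strands in capitals, the 5p strand first, to show where the 2 counted products lie (RefSeq, GRCh38.p14, minus strand of chromosome 17).
MIR301A: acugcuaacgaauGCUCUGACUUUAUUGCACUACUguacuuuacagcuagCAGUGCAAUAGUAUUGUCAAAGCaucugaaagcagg

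Without the replicate block, miR-301a-5p had larger fold changes, in either direction, than any member in both comparisons with HCT-FU-c. It measured 65.9, 42.2 and 61.5 CPM in HCT116, 41.4, 44.7 and 37.0 CPM in the oxaliplatin subline and 212, 144 and 139 CPM in the fluorouracil subline. All 3 HCT-FU-c libraries were above all 6 others. In HCT-Oxa-c against HCT-FU-c the log2 fold change was -2.00 (SE 0.28, edgeR adjusted p = 0.00443), and it passed in all 17 alternative fits, where the highest adjusted p was 0.0370. Against HCT116 the log2 fold change in HCT-FU-c was 1.55 (SE 0.28), with an edgeR adjusted p of 0.129. It was 0.000136 with the replicate block, and ranged from 0.000136 to 0.815 over the 17 alternatives, of which 3 passed. The fit of replicates 1 and 2 only, chosen after the data were seen, passed as well (log2 fold change 1.66, edgeR adjusted p = 0.00698). In HCT-Oxa-c against HCT116 it was -0.46 (SE 0.28, edgeR adjusted p = 0.696).

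The replicate number did not separate miR-301a-5p (edgeR adjusted p = 0.339), in contrast to the values for miR-301a-3p, though the difference between the strands was not tested. miR-301a-3p in turn did not follow the line. Its log2 fold change in HCT-FU-c against HCT116 was -0.30 (SE 0.92) without the block and -0.22 (SE 0.28) with it, and the 95% interval with the block was -0.79 to 0.35.

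The balance of strands within a hairpin was compared because it does not depend on the scaling between libraries. For MIR301A, the 5p strand made up 72.4%, 57.8% and 26.9% of the counts of both strands in HCT116. In HCT-Oxa-c it was 55.6%, 58.5% and 25.5%, and in HCT-FU-c 85.4%, 88.3% and 52.7%. Replicate 3 had the lowest share in every line, and at each replicate number HCT-FU-c had the highest. The log2 ratio of 5p to 3p was higher in HCT-FU-c than in HCT116 by 1.15, 2.45 and 1.59 at replicate numbers 1, 2 and 3, with a mean difference of 1.73. Leaving out 1 library gave 0.95 (without HCT116 replicate 3) to 2.59 (without HCT-FU-c replicate 3). The lines overlapped, and the two-sided exact permutation test, which does not use the replicate numbers, gave p = 0.30 (adjusted p = 0.54 over 9 comparisons, where 0.10 is the smallest p that 3 against 3 allows). In HCT-Oxa-c against HCT-FU-c the differences at the 3 replicate numbers were -2.21, -2.41 and -1.69, with a mean of -2.10 (-2.96 to -1.46 when 1 library was left out) and the same exact p of 0.30. An exact test within replicate numbers, added after the data were seen, gave p = 0.25 in both comparisons, which is the smallest p that 3 pairs allow.

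MIR130B was read mostly from its 5p strand, which does not carry the family seed. This strand made up 73.6% ± 6.82 of the counts in HCT116, 82.8% ± 5.15 in the oxaliplatin subline and 75.0% ± 7.85 in the fluorouracil subline (SD, n = 3 each). The log2 ratio was higher in HCT-Oxa-c than in HCT116 by 1.07, 0.57 and 0.74 at the 3 replicate numbers, with an exact permutation p of 0.20 and an adjusted p of 0.54. MIR454 was the opposite case, with 3.05% ± 1.09 from the 5p strand in HCT116, 5.14% ± 0.978 in the oxaliplatin subline and 4.58% ± 2.77 in the fluorouracil subline. Its log2 ratio was higher in HCT-Oxa-c than in HCT116 by 0.54, 0.36 and 1.51, again with an exact permutation p of 0.20. None of the 9 comparisons of strands had an adjusted p below 0.54.

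As a comparison, 5 miRNAs with a related seed were included, since their seeds share 6 bases with that of the family, shifted by 1 position. One sequence of each group is printed with bases 2 to 8 in capitals.
hsa-miR-19b-3p: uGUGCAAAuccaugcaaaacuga
hsa-miR-148a-3p: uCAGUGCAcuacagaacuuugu

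miR-148a-3p passed the test between the sublines. It measured 5614, 6527 and 5182 CPM in the oxaliplatin subline and 3093, 2962 and 3275 CPM in the fluorouracil subline, with no overlap, and its log2 fold change was 0.89 (edgeR adjusted p = 0.0381). It was the 1 of the 5 that passed in that comparison, and 0 of the 5 passed against HCT116 in either subline. With the replicate block miR-148a-3p and miR-152-3p passed in HCT-Oxa-c against HCT116 (edgeR adjusted p = 0.0447 and 0.0284), beside 14.7% of all tested miRNAs. Between the sublines, with the block, miR-19b-3p joined miR-148a-3p (edgeR adjusted p = 0.0381 and 0.000120), beside 26.4% of all tested miRNAs. For the replicate number, only miR-152-3p of the 5 passed (edgeR adjusted p = 0.00491), beside 45.5% of all tested miRNAs. The level of miR-152-3p was lower in replicate 3 of each line than the mean of the other replicates, with ratios of 0.412, 0.731 and 0.640. None of the 5 was at 2 or more times that mean in replicate 3 of any line, as miR-301a-3p and miR-454-3p were in every line.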

How the data were processed

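The authors sequenced small RNA libraries with a MiSeq. They deposited 1 table with a raw count for each mature miRNA. Beside each count they deposited a normalized signal, which was checked to be the count divided by 1 factor per library (all 1198 values of each library within 0.05 plus 0.001 of the signal) and was not used further. The submitters' processing notes name CASAVA 1.8, Bowtie 1.1.2, DESeq2 and GRCh38.p7 without their roles. Columns were matched to lines and replicates by name.

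Counts were tested with edgeR 4.0.16 (R 4.3.3) by the quasi-likelihood F test with TMM normalization over all 9 libraries. filterByExpr (minimum count 10, minimum total 15) kept 367 of 1198 miRNAs, with Benjamini-Hochberg adjustment over these and a threshold of 0.05. Fold changes used a prior count of 0.125 and correlations log2 CPM with a prior count of 2. DESeq2 1.42.0 was an alternative tool. Both models were tested on simulated counts of HCT-Oxa-c against HCT116, with a 4-fold change in 200 of 367 miRNAs. The model of the line only, on counts simulated without a replicate effect, recovered 81%. The model with the block, on counts with such an effect, recovered 95%, and each had 3 false calls. Smaller changes were not simulated. Strand ratios used a pseudocount of 0.5 and exact permutation tests (scipy 1.17.1). Total counts per library ranged from 856383 to 2207538.

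Deviations from the line means went together in libraries of equal replicate number. Correlations were 0.41 to 0.51 for number 1, 0.56 to 0.65 for number 2 and 0.74 to 0.76 for number 3. Between different numbers they were 0.42 to 0.61 for numbers 1 and 2, and -0.68 to -0.50 for number 3 with another number. They therefore set replicate 3 apart but did not separate number 1 from number 2. The numbers in the labels were taken to pair the libraries, and the replicate block is given where it changes a call or a count. Replicates of one line differed by more than sampling noise, with a chi-square of 11.6 to 461 per degree of freedom.

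Named miRNAs were the 7 members, the opposite strands of their hairpins, the listed miRNAs with the same seed, 5 miRNAs with a related seed, the most alike miRNA of each member, and cell type markers. The members and lists were chosen with earlier results of these data known. Alternatives changed the scaling, filter, tool, libraries in the model, replicate block and pseudocount, or left out each library in turn. The red blood cell miRNAs, a fit of replicates 1 and 2 only and an exact test of strand ratios within replicate numbers were chosen after seeing the data. Sequences are from RefSeq (GRCh38.p14) and loci from GENCODE 29.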

Additional observations from a re-analysis of the deposited data

Results flagged for a closer look

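The level of miR-301a-5p differed between the sublines when they were tested against each other. Its log2 level was -2.00 in HCT-Oxa-c relative to HCT-FU-c (SE 0.28, edgeR adjusted p = 0.00443), and it was lower in HCT-Oxa-c at 3 of 3 replicate numbers, with values of -2.35, -1.68 and -1.92. Relative to HCT116, whose libraries both values share, it was -0.46 in HCT-Oxa-c and 1.55 in the fluorouracil subline.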

How the results depend on the processing

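Counts of differentially expressed miRNAs moved most with the replicate block. For HCT-Oxa-c against HCT116, 9 became 54 with that block, 43 with replicates 1 and 2 only, 23 with DESeq2, 16 without a filter and 4 with at least 10 counts in every library. In HCT-FU-c against HCT116, 0 became 20 with the block, 13 with replicates 1 and 2 only, 4 with DESeq2, 1 without a filter and 1 with at least 10 counts. Between the sublines, 16 became 97 with the block, 67 with replicates 1 and 2 only, 43 with DESeq2 and 9 with at least 10 counts. Leaving out 1 library gave 4 (HCT116 replicate 2) to 12, 0 throughout, and 6 (HCT-FU-c replicate 1 or 2) to 23, and for the replicate number 134 to 172 instead of 167. The first count was 5 without HCT116 replicate 1, HCT-Oxa-c replicate 2 or HCT-Oxa-c replicate 3, and the last was 10 without HCT116 replicate 1 and 9, 7 and 8 without HCT-Oxa-c replicates 1, 2 and 3. Total counts moved the median log2 fold change of all tested miRNAs to 0.19 in HCT-FU-c and to -0.26 between the sublines. The cause of these shifts was not tested.

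Of 213 fold changes of members and miR-301a-5p under other settings, 178 kept their direction and side of the threshold, 7 newly passed it and 28 changed sign. None that changed sign was past the threshold. In HCT-Oxa-c against HCT116, miR-130a-3p was -0.0018 with total counts, -0.029 with the block and -0.10 with replicates 1 and 2 only. miR-301a-3p was 0.23 with replicates 1 and 2 only. miR-301b-3p was 0.010 with TMM without the most abundant miRNA, 0.049 without a filter and 0.56 with replicates 1 and 2 only. miR-454-3p was 4.46e-05 with RLE, 4.67e-05 with DESeq2, 0.016 without a filter, 0.055 with at least 10 counts and 0.039 with replicates 1 and 2 only. In HCT-FU-c against HCT116, miR-130a-3p was -0.0033 with RLE, and miR-130b-3p was 0.12 with total counts and 0.043 with replicates 1 and 2 only. miR-454-5p was 0.18 with total counts, 0.024 without a filter, 0.020 with at least 10 counts, 0.033 with the block and 0.13 with replicates 1 and 2 only. Between the sublines, miR-130a-3p was 0.041 with RLE, 0.028 with TMM without the most abundant miRNA, 0.0096 with the 6 libraries compared and 0.012 with DESeq2. miR-301a-3p was 0.0044 with RLE, 0.11 with the block, 0.33 with replicates 1 and 2 only and 0.00089 with DESeq2.

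Leaving out 1 library changed the sign of 31 of 216 fold changes and no call. The ranges in HCT-Oxa-c against HCT116 were -0.21 to 0.21 for miR-130a-3p, -1.11 to 0.99 for miR-301a-3p, -0.42 to 0.30 for miR-301b-3p and -0.47 to 0.49 for miR-454-3p. In HCT-FU-c against HCT116 they were -0.18 to 0.21 for miR-130a-3p, -0.22 to 0.18 for miR-130b-3p, -0.13 to 0.23 for miR-130b-5p, -1.43 to 1.08 for miR-301a-3p, -1.17 to 0.21 for miR-454-3p and -0.18 to 0.18 for miR-454-5p. Between the sublines they were -0.27 to 0.19 for miR-130a-3p, -0.81 to 1.12 for miR-301a-3p and -0.13 to 1.18 for miR-454-3p. The log2 strand ratio ranged from -0.20 to 0.42 for MIR130B and from -0.014 to 1.01 for MIR454 in HCT-FU-c against HCT116, from -1.15 to 0.28 for MIR301A in HCT-Oxa-c against HCT116, and from -0.21 to 0.81 for MIR454 between the sublines. The replicate number term of miR-130b-5p passed in 6 of 14 alternatives. miR-301b-3p has no value with at least 10 counts in every library.

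With 3 libraries per line, a strand ratio could not reach an exact p below 0.10, or below 0.25 within replicate numbers. The replicate block changed no call of a member other than that of miR-301b-3p between the sublines. miR-301b-3p rests on 4 to 56 counts per library and miR-454-5p on 13 to 53, and the intervals of miR-301a-3p without the block allow changes of over 1 log2 unit in both directions. The paper states that several libraries were pooled in each sequencing run, and the labels do not give which libraries shared one. Replicate 3 cannot be told apart from a difference between runs, from low depth or from the presence of red blood cell miRNAs.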

Other observations

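The opposite strands miR-130a-5p and miR-301b-5p were too low to be tested. miR-130a-5p had 4, 1 and 2 counts in HCT116, 2, 4 and 0 in the fluorouracil subline, and 0 in each of the 3 HCT-Oxa-c libraries, where the limit of 3 counts allows up to 1.57, 1.34 and 3.08 CPM. The other lines were at or near this limit, so no fold change is given. miR-301b-5p had 3 to 11 counts per library, with means of 5.73 ± 1.73 CPM in HCT116, 4.69 ± 2.29 CPM in HCT-Oxa-c and 6.08 ± 0.963 CPM in HCT-FU-c (SD, n = 3 each).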
